A study of Homo sapiens with 4 samples.

Results

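The nuclear-encoded genes of the respiratory chain and the ATP synthase were examined in PC9 cells, an established line of human lung adenocarcinoma, after depletion of TPX2, a microtubule-binding protein of the mitotic spindle. The genes were chosen by symbol, as those starting with NDUFA, NDUFB, NDUFC, NDUFS or NDUFV (complex I), SDHA to SDHD (complex II), UQCR (complex III), COX4 to COX8 (complex IV) and ATP5 (complex V), without the NDUFAF genes and pseudogene symbols. Of 93 symbols of this kind, 86 had an expected count of at least 10 in each of the 4 libraries, out of 18134 genes in the deposited table and 14048 genes that were tested. The 86 genes were 37 of complex I, 4 of complex II with 4 of its assembly factors (SDHAF1 to SDHAF4), 9 of complex III, 13 of complex IV, 18 of complex V and the readthrough symbol NDUFC2-KCTD14. NDUFA4 and NDUFA4L2 were counted with complex IV, where the NDUFA4 protein is bound.

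The study asked how TPX2 acts on autophagy and stem-like properties in lung adenocarcinoma, and the deposited libraries of its transcriptome experiment analysed here were 2 of shTPX2 cells and 2 of shNC cells. Both lines were made by lentiviral infection of PC9 cells and selection with an antibiotic (puromycin on a pLKO.1 vector in the methods), so the shNC cells also carry an integrated short hairpin vector and went through selection. The cells grew in DMEM with serum, and neither the labels nor the methods call the lines clones. Nothing in the labels says that the 2 libraries of a group came from separate cultures, so the p-values measure only the spread between these libraries, which may be technical.

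The respiratory chain passes electrons from NADH (complex I) and succinate (complex II) through coenzyme Q, complex III and cytochrome c to oxygen (complex IV), and complexes I, III and IV pump protons across the inner mitochondrial membrane. The ATP synthase (complex V) lets the protons flow back through its membrane rotor and makes ATP in its F1 head. Most subunits are encoded in the nucleus and imported, while a few central subunits of complexes I, III, IV and V come from mitochondrial DNA. The mitochondrially encoded subunits were not analysed here.

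TPX2 itself had 88.9 and 175 CPM (depth-scaled counts) in shNC 1 and shNC 2 and 76.5 and 74.4 CPM in shTPX2 1 and shTPX2 2. Both shTPX2 libraries were below both shNC libraries, but shNC 1 lay closer to the shTPX2 libraries than to shNC 2. The log2 fold change was -0.81 (SE 0.32, adjusted p = 0.618, quasi-likelihood test of edgeR, adjusted by Benjamini-Hochberg over all tested genes), and it was -0.24 without shNC 2 and -1.21 without shNC 1. Summed expected counts ranged from 20906425 to 21972578 per library. The epithelial markers KRT8, KRT18, KRT19, KRT7, EPCAM and CDH1 were above 10 TPM (length-scaled transcript units) in all 4 libraries (6 of 6, summed 20013 to 27561 TPM), as was EGFR (78.4 to 169 TPM). Of the markers of other cell types, CD68 (1 of 5 leukocyte markers, summed 128 to 225 TPM) and CDH5 (1 of 3 endothelial markers, summed 19.9 to 36.5 TPM) were above 10 TPM in every library, and the 4 fibroblast markers summed to 5.77 to 12.04 TPM, with 1 of them at 0 in all.

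The respiratory chain and ATP synthase genes lay slightly higher in shTPX2 than in shNC cells, as a group and in each complex by the median of its genes, except that complex II had a median of -0.015 on the TPM scale. The 86 genes together took 16511 and 18381 TPM in shNC 1 and shNC 2 and 17913 and 19590 TPM in shTPX2 1 and shTPX2 2, which is 1.65% to 1.96% of the TPM total of the genes used here, without the mitochondrially encoded subunits. On this summed level the groups overlapped, because shTPX2 1 lay below shNC 2. On the TMM-scaled log2 CPM scale, on which a gene's deviation is its value minus its mean over the 4 libraries, the median deviation of the 86 genes ran from -0.15 (shNC 1) and -0.047 (shNC 2) to 0.052 (shTPX2 1) and 0.14 (shTPX2 2). On that scale the groups did not overlap. The median step from shNC 1 to shNC 2 was 0.10 (58 of 86 genes higher in shNC 2), and that from shTPX2 1 to shTPX2 2 was 0.080 (64 of 86 higher in shTPX2 2). Between groups the median step was 0.10 from shNC 2 to shTPX2 1 (60 of 86 genes higher in shTPX2 1), 0.20 from shNC 2 to shTPX2 2 (71 of 86), 0.22 from shNC 1 to shTPX2 1 (74 of 86) and 0.29 from shNC 1 to shTPX2 2 (78 of 86). The smallest step between groups was thus as large as the step between the shNC libraries, and the other 3 were larger. These are bulk values, in which fewer cells of a kind and less RNA per cell cannot be told apart.

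Of the 86 genes, 76 had a log2 fold change above 0 and 10 below 0, with a median of 0.21 and a range from -0.53 to 0.66 (65 of 86 above 0 when counts were scaled by library size only). Over all 14048 tested genes, 48.9% had a log2 fold change above 0 and the median was -0.0085. The median SE of a member's log2 fold change was 0.18, close to the size of the median itself. At an adjusted p under 0.05 in edgeR's quasi-likelihood test, 0 of the 86 genes were called (0% of all tested genes were called, and the smallest adjusted p among the 86 was 0.575), while 7 were higher and 0 lower at an unadjusted p under 0.05 (3.13% and 4.9% of all tested genes), and DESeq2 called 0 of the 86 at an adjusted p under 0.05 (0.79% of all tested genes). The study's methods ask for a p-value of at most 0.1 and a log fold change of at least 0.3, without a log base. Here these were read as an unadjusted limma-voom p and a log2 change in either direction. By these criteria, 16 of the 86 genes were higher (18.6%) and 0 were lower. Among all tested genes, 6.24% were higher and 7.99% lower. On the TMM-scaled CPM scale, both shTPX2 libraries exceeded both shNC libraries in 52 of 86 genes (60.5%), against 19.4% of all tested genes. On that scale SDHA was the 1 gene with both shTPX2 libraries below both shNC libraries (20.2% of all tested genes). Single genes are called separated or overlapping on that scale unless TPM is named. The TPM values of some separated genes overlapped, as for COX4I1 (410 and 426 against 416 and 428 TPM) and UQCRC2 (143 and 150 against 148 and 153 TPM). Separation on the TPM scale was not counted. An exact permutation test of 2 libraries against 2 cannot go below a two-sided p of 0.3333, so the separation of a single gene carries no p of its own. The count of 16 genes fell to 7 when counts were scaled by library size only, where 4.11% of all tested genes were called higher. That scaling moved the median of all tested genes to -0.078. It moved the calls over all genes from 876 higher and 1122 lower to 578 higher and 1445 lower. The count of 16 also fell when any library was left out, and most without shTPX2 2. Without shTPX2 2, the share of the 86 genes called higher was below that of all tested genes. With any other library left out it was above. Over 12 alternative settings, ATP5PO kept the call in 12, ATP5MF in 11, UQCRQ, NDUFB10, NDUFB9 and NDUFB2 in 10, ATP5ME and ATP5MC1 in 9, UQCR11, COX7B, NDUFB7 and NDUFB11 in 8, NDUFA6 in 7, ATP5PD and NDUFS3 in 6 and SDHB in 4.

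**Figure D1:**
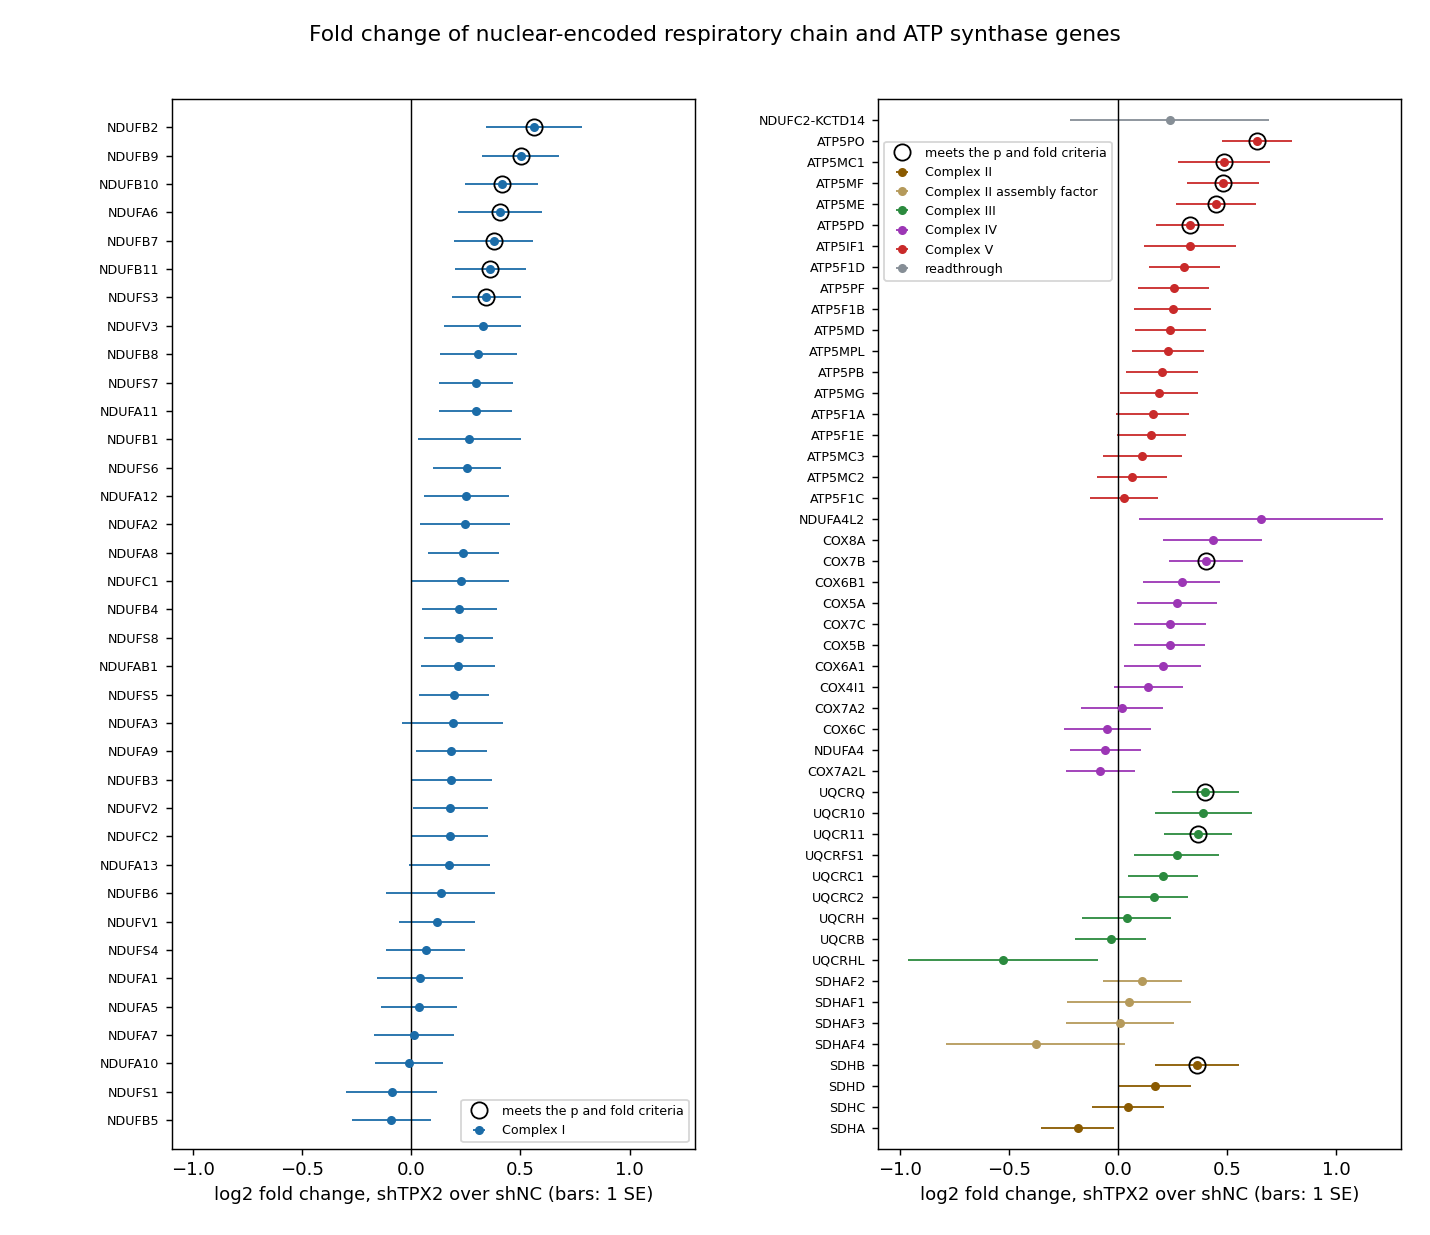
Log2 fold change of shTPX2 over shNC (x axis) for 85 of the 86 genes, one row per gene, with complex I on the left and the other complexes on the right; points are edgeR estimates, bars are 1 SE, and open circles mark the 16 genes that met the study's p and fold criteria. Points lie right of the vertical line at 0 for 75 of these 85 genes, and all 18 genes of complex V lie right of it (16 of 18 when counts were scaled by library size only).

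By complex, the median log2 fold change was 0.22 in complex I (34 of 37 genes above 0), 0.11 in complex II (3 of 4), 0.20 in complex III (7 of 9), 0.24 in complex IV (10 of 13) and 0.25 in complex V (18 of 18). When counts were scaled by library size only, the genes above 0 were 30 of 37, 2 of 4, 6 of 9, 9 of 13 and 16 of 18 in the same order. The 4 assembly factors of complex II had a median of 0.029 (-0.046 with library size only). Complex V had the lowest spread of libraries within groups, pooled over both groups (SD 0.020 on the log2 scale, against 0.052 to 0.11 in the other complexes), although its shTPX2 libraries lay farther apart than those of complex IV. Its median deviations were -0.14 and -0.12 in the shNC libraries and 0.10 and 0.14 in the shTPX2 libraries, and its summed levels were 4376 and 4503 TPM in the shNC libraries against 4739 and 4958 TPM in the shTPX2 libraries, without overlap. In complexes I to IV the summed TPM of the groups overlapped, and no difference between complexes was tested.

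**Figure D2:**
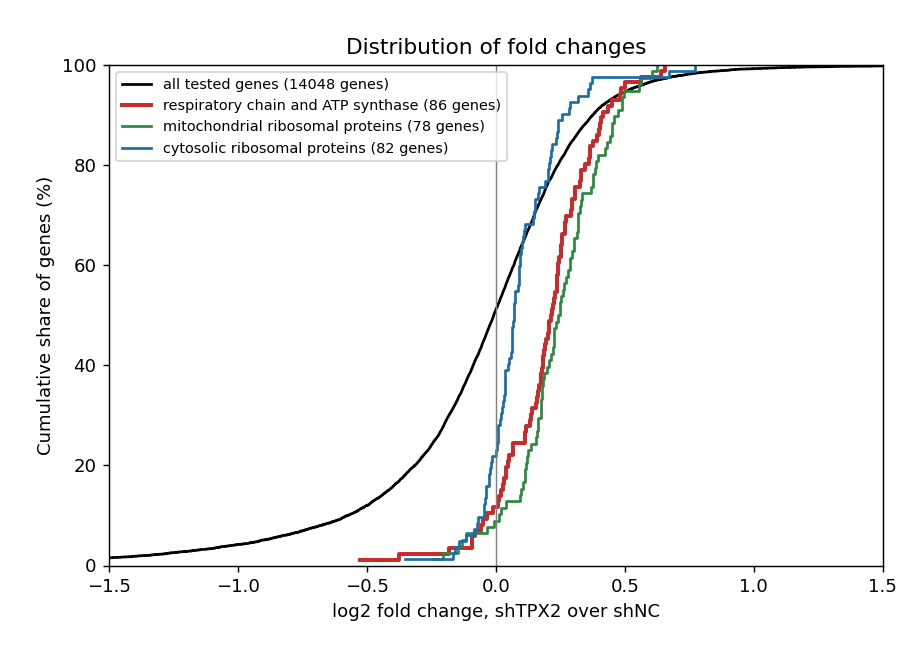
Cumulative share of genes (y axis, %) against the log2 fold change of shTPX2 over shNC (x axis) for all 14048 tested genes, the 86 respiratory chain and ATP synthase genes, 78 mitochondrial ribosomal protein genes and 82 cytosolic ribosomal protein genes. The curve of the 86 genes crosses 50% at 0.21, beside the mitochondrial ribosomal proteins at 0.25 and right of the cytosolic ribosomal proteins at 0.069 (-0.0024 with library size only) and of all tested genes at -0.0085.

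Complex I is the entry point for electrons from NADH, with a matrix arm that holds the flavin and the iron-sulfur clusters and a membrane arm that pumps protons. Of its 7 nuclear-encoded core subunits, 6 had a log2 fold change above 0 and 1, NDUFS3, met the study's criteria. NDUFS3, a core subunit beside the quinone-binding site, had 49.5 and 48.9 CPM in the shNC libraries and 59.8 and 65.1 CPM in the shTPX2 libraries (log2 fold change 0.34, SE 0.16). NDUFS7 (35.1 and 38.8 against 42.6 and 48.1 CPM) and NDUFS8 (148 and 153 against 177 and 172 CPM), which carry the last iron-sulfur clusters before coenzyme Q, had log2 fold changes of 0.30 and 0.22. Their groups did not overlap either, although neither gene passed the p criterion or, with limma-voom log2 fold changes of 0.294 and 0.216, the fold criterion. NDUFV2, an iron-sulfur subunit of the NADH module, had 62.3 and 74.7 against 75.8 and 79.2 CPM. The NADH-binding flavoprotein gene NDUFV1 (176 and 189 against 213 and 184 CPM) overlapped between groups. NDUFS1, the largest subunit of the matrix arm, had 45.6 and 57.7 CPM in shNC and 42.5 and 54.5 CPM in shTPX2, with a log2 fold change of -0.091 (SE 0.21) that turned to 0.083 without shNC 2 and to 0.084 without shTPX2 1. In NDUFS1 the 2 libraries with the same number lay closer than the 2 libraries of a group.

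Among the 10 accessory subunits of the matrix arm, all had a log2 fold change above 0 (7 of 10 with library size only, median 0.23 as reported) and 1 met the study's criteria. This was NDUFA6, a protein of the LYR family at the base of the matrix arm, with 25.8 and 20.9 CPM in shNC and 31.2 and 30.8 CPM in shTPX2 (log2 fold change 0.41, SE 0.19, and 0.26 without shNC 2). NDUFAB1, the mitochondrial acyl carrier protein that binds NDUFA6 in the complex, had 42.6 and 47.8 against 49.2 and 55.6 CPM (log2 fold change 0.21, SE 0.17) and did not meet them. The smallest change of these 10 genes was that of NDUFA7 (log2 fold change 0.012, SE 0.18).

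The membrane arm held most of the called genes of complex I, 5 of 20 (25%, against 6.24% of all tested genes called higher). All 5 encode accessory subunits of its NDUFB group. Their calls, and those of NDUFA6 and NDUFS3, were lost when shNC 2 was left out and also when shTPX2 2 was left out. NDUFB2 had 33.1 and 23.0 CPM in shNC and 41.0 and 41.9 CPM in shTPX2 (log2 fold change 0.56, SE 0.22, 47.6% higher). NDUFB9, another LYR protein, had 71.3 and 59.4 against 86.9 and 98.2 CPM (log2 fold change 0.50, SE 0.18, 41.5% higher). In NDUFB2 the gap between the groups was narrower than the distance between the shNC libraries, and in NDUFB9 it was wider. The value of NDUFB2 was 0.32 without shNC 2 and 0.86 without shNC 1. NDUFB10 had 75.3 and 64.8 CPM in shNC and 89.8 and 96.8 CPM in shTPX2 (log2 fold change 0.41, SE 0.17). NDUFB7 had 76.3 and 70.3 against 84.8 and 105.6 CPM (log2 fold change 0.38, SE 0.18, and 0.22 without shTPX2 2). NDUFB7 and NDUFB10 encode proteins with paired cysteine motifs on the intermembrane space side of the complex. NDUFB11, a membrane-spanning subunit, had 68.7 and 60.1 CPM in shNC and 84.0 and 81.5 CPM in shTPX2 (log2 fold change 0.36, SE 0.16). NDUFB5 and NDUFA10 lay at the other end of the arm's range, with log2 fold changes of -0.093 (SE 0.18) and -0.013 (SE 0.16) and with overlapping groups. Over the 20 genes the median was 0.22, and 11 of them (55%) separated with shTPX2 higher, against 19.4% of all tested genes.

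Complex II oxidises succinate and is the one complex of the chain without mitochondrially encoded subunits. SDHB, the iron-sulfur subunit, had 53.3 and 70.6 CPM in shNC and 78.0 and 81.4 CPM in shTPX2 (log2 fold change 0.36, SE 0.19) and met the study's criteria, with a value of 0.19 without shNC 1 and 0.57 without shNC 2. SDHA, the flavoprotein that binds succinate, had 260 and 282 CPM in shNC and 234 and 244 CPM in shTPX2 (log2 fold change -0.18, SE 0.17). SDHA and SDHB are joined one to one in the enzyme, and their fold changes differed in sign, a difference that was not tested. The membrane anchors SDHC and SDHD had log2 fold changes of 0.047 (SE 0.16) and 0.17 (SE 0.17), the latter between 0.083 (without shNC 1) and 0.26 (without shNC 2). Of the assembly factors, SDHAF1, SDHAF2 and SDHAF3 lay between 0.0075 and 0.11 and SDHAF4, at 2.74 to 5.58 CPM, at -0.38 (SE 0.41).

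Complex III carries electrons from reduced coenzyme Q to cytochrome c. Its Rieske iron-sulfur protein, UQCRFS1, had 83.1 and 98.4 CPM in shNC and 96.5 and 122 CPM in shTPX2 (log2 fold change 0.27, SE 0.19), with overlapping groups and a value of 0.096 without shTPX2 2, 0.16 without shNC 1 and 0.44 without shTPX2 1. The core proteins UQCRC1 (136 and 128 against 156 and 149 CPM) and UQCRC2 (151 and 154 against 170 and 172 CPM) separated by a small step. The 2 called genes of the complex, UQCRQ and UQCR11, encode small accessory subunits. UQCRQ had 59.9 and 61.2 CPM in shNC and 78.0 and 81.9 CPM in shTPX2 (log2 fold change 0.40, SE 0.15). UQCR11 had 61.2 and 63.2 against 83.0 and 77.4 CPM (log2 fold change 0.37, SE 0.16). Within each group the libraries of these genes lay close together, and the step between groups was larger. UQCR10, also a small subunit, had a fold change of similar size (0.39, SE 0.22) with a wider spread, at 69.8 and 94.9 against 95.2 and 121 CPM, and did not meet the criteria. With 1 library left out its value ran from 0.20 (shNC 1 left out) to 0.63 (shNC 2 left out). UQCRB had a log2 fold change of -0.033 (SE 0.16).

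UQCRH, the acidic hinge protein of complex III, had 88.9 and 123 CPM in shNC and 107 and 111 CPM in shTPX2 (log2 fold change 0.040, SE 0.20). The UQCRHL symbol had 3.21 and 4.73 against 1.99 and 3.51 CPM (log2 fold change -0.53, SE 0.44), and its value was -0.17 without shTPX2 1, -0.23 without shNC 2 and -0.98 without shTPX2 2. The coding sequence of UQCRHL is in 1 exon and is the same as that of UQCRH in 269 of 273 bases (98.5%), with a run of 157 identical bases, so the division of reads between these 2 genes by the authors' quantification is uncertain.

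Complex IV, cytochrome c oxidase, reduces oxygen, and its catalytic subunits are encoded in the mitochondria. The nuclear-encoded genes COX4I1 (141 and 142 against 156 and 155 CPM, log2 fold change 0.14), COX5A (55.1 and 66.1 against 67.0 and 79.4 CPM, 0.27) and COX5B (133 and 146 against 168 and 161 CPM, 0.24) separated with shTPX2 higher and did not meet the criteria. The value of COX5A was 0.15 without shTPX2 2, 0.16 without shNC 1 and 0.40 without shNC 2. COX7B, a small membrane subunit on the X chromosome, was the 1 gene of the complex that met them, with 60.9 and 71.7 CPM in shNC and 85.2 and 90.4 CPM in shTPX2 (log2 fold change 0.41, SE 0.17). COX8A had a log2 fold change of 0.43 (SE 0.23) with a wide spread, at 116 and 139 against 142 and 203 CPM, and the value was 0.16 without shTPX2 2 and 0.68 without shTPX2 1. The genes below 0 were COX7A2L, a factor of respiratory supercomplexes (-0.081, SE 0.16), NDUFA4 (-0.058, SE 0.16) and COX6C (-0.050, SE 0.20), all with overlapping groups, and the value of COX7A2L lay between -0.13 (without shTPX2 1) and -0.017 (without shTPX2 2). NDUFA4L2, an isoform of NDUFA4 known to be induced in hypoxia, had a log2 fold change of 0.66 with the largest SE of the 86 genes (0.56), and the value was 0.10 without shTPX2 1, 0.18 without shNC 2 and 1.36 without shNC 1. It had 2.43 and 1.08 CPM in shNC and 3.65 and 1.88 CPM in shTPX2, with overlapping groups.

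Complex V consists of the F1 head, which makes ATP, a ring of c subunits that turns in the membrane, a peripheral stalk that holds the head still and small membrane subunits that join the enzymes into dimers. All 18 genes had a log2 fold change above 0 (16 of 18 with library size only, the exceptions being ATP5F1C and ATP5MC2). On the CPM scale 14 of them (77.8%) separated with shTPX2 higher, against 19.4% of all tested genes. The study's criteria were met by 5 (27.8%), against 6.24% of all tested genes called higher. None of the 5 was among the F1 genes. The catalytic subunit gene ATP5F1B had 579 and 523 CPM in shNC and 671 and 641 CPM in shTPX2 (log2 fold change 0.25, SE 0.18). ATP5F1A (224 and 216 against 234 and 258 CPM), ATP5F1D (92.2 and 82.3 against 110.0 and 106 CPM) and ATP5F1E (105 and 113 against 121 and 122 CPM) also separated. On the TPM scale ATP5F1A (245 and 242 against 234 and 266 TPM) and ATP5F1E (539 and 594 against 570 and 587 TPM) overlapped. The gene of the rotating shaft, ATP5F1C, overlapped, with 107 and 105 against 105 and 111 CPM (log2 fold change 0.027, SE 0.16). The median over the 5 F1 genes was 0.16 (0.092 with library size only).

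The peripheral stalk had the highest median of the parts of complex V with several genes, 0.29 over 4 genes. On the CPM scale both shTPX2 libraries lay above both shNC libraries in all 4. On the TPM scale ATP5PB overlapped (146 and 134 against 144 and 152 TPM). ATP5PO encodes the subunit that binds the stalk to the top of the F1 head and confers sensitivity to oligomycin. It had 48.5 and 53.0 CPM in shNC and 76.1 and 82.1 CPM in shTPX2 (log2 fold change 0.64, SE 0.16, 55.8% higher), and it met the study's criteria. Its adjusted p was 0.575 in the edgeR test and 0.181 in DESeq2. ATP5PD, subunit d, had 71.6 and 70.2 against 87.8 and 90.6 CPM (log2 fold change 0.33, SE 0.15). ATP5PF, coupling factor 6 (49.2 and 44.9 against 53.7 and 58.6 CPM), and ATP5PB, subunit b (147 and 132 against 158 and 163 CPM), had log2 fold changes of 0.26 and 0.20 and did not meet the criteria.

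Among the 5 small membrane subunits, 2 met the criteria. ATP5MF, subunit f, had 97.8 and 86.03 CPM in shNC and 132 and 125 CPM in shTPX2 (log2 fold change 0.48, SE 0.17, 39.7% higher). ATP5ME, subunit e, had 20.8 and 20.5 against 26.7 and 29.7 CPM (log2 fold change 0.45, SE 0.18). ATP5MG, subunit g, which pairs with subunit e where the enzymes form dimers, had a log2 fold change of 0.19 (SE 0.18) and overlapping groups. ATP5IF1, the inhibitor that blocks ATP hydrolysis by the enzyme, had 36.5 and 48.9 against 48.7 and 58.7 CPM (log2 fold change 0.33, SE 0.21), also with overlap, and the value ran from 0.15 with shNC 1 left out, or 0.20 with shTPX2 2 left out, to 0.55 with shNC 2 left out.

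The c-ring is encoded by 3 genes on different chromosomes, ATP5MC1, ATP5MC2 and ATP5MC3, which differ in the import sequence of the precursor and give the same mature protein. ATP5MC1 was the called gene of the 3, with 19.6 and 25.7 CPM in shNC and 29.5 and 33.9 CPM in shTPX2 (log2 fold change 0.49, SE 0.21). The value was 0.32 without shNC 1 and 0.69 without shNC 2, and the call was lost without shNC 1, without shTPX2 2 and with library size only. Its coding part lies at chr17:48893418-48895766 on the plus strand (GRCh38, GENCODE v29, 136 codons in 4 exons), that of ATP5MC2 at chr12:53665317-53672614 on the minus strand (141 codons) and that of ATP5MC3 at chr2:175178291-175181393 on the minus strand (142 codons). Their last 77 codons encode identical residues, and they are shown here because reads from this stretch must be told apart by synonymous bases. Capitals mark bases that are the same in all 3 genes, and lower case marks bases that differ in at least 1 of them.
ATP5MC1: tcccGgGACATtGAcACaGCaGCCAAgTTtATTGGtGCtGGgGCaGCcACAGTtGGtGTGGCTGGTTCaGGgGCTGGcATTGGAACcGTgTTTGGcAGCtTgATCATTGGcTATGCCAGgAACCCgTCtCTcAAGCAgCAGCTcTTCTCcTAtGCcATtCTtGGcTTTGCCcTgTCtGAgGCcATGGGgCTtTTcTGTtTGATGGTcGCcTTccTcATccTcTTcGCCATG
ATP5MC2: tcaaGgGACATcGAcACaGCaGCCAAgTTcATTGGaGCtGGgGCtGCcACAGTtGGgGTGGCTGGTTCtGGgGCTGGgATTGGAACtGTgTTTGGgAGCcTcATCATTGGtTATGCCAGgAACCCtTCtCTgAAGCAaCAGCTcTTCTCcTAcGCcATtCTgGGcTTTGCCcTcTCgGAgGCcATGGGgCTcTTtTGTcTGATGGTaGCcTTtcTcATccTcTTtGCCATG
ATP5MC3: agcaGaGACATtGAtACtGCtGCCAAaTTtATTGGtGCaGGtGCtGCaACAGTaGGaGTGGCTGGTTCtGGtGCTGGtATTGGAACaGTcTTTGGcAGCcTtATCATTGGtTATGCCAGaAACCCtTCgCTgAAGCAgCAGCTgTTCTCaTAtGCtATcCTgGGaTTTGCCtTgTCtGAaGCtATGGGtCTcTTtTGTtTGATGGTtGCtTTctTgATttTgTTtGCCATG
Of the 231 bases, 174 (75.3%) were the same in all 3 genes, and ATP5MC1 shared 88.3% with ATP5MC2 and 80.1% with ATP5MC3. The longest run of identical bases between a pair of genes was 17, far below that of UQCRH and UQCRHL.

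On the TPM scale, which corrects for transcript length and allows levels of different genes to be compared, ATP5MC2 was the main c-ring gene in every library, at 561 and 576 TPM in the shNC libraries against 520 and 571 TPM in the shTPX2 libraries. ATP5MC3 had 107 and 135 against 112 and 127 TPM. ATP5MC1 had 73.2 and 98.8 against 100.3 and 119.9 TPM. Thus the share of ATP5MC1 in the c-ring transcripts was 9.88% and 12.2% in shNC and 13.7% and 14.7% in shTPX2, without overlap, while the log2 fold changes of ATP5MC2 and ATP5MC3 were 0.064 (SE 0.16) and 0.11 (SE 0.18). With 1 library left out these ran from 0.024 to 0.12 for ATP5MC2 (without shTPX2 2 and without shTPX2 1) and from -0.0083 to 0.25 for ATP5MC3 (without shNC 1 and without shNC 2). The difference between the 3 genes was not tested.

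By mean TPM, the highest of the 86 genes was COX6A1. COX6A1 had 813 to 979 TPM over the 4 libraries, NDUFA3 576 to 839 TPM, COX7C 621 to 754 TPM and COX6B1 589 to 776 TPM. The F1 catalytic subunit gene ATP5F1B had 612 to 701 TPM. The ranges of NDUFA3, COX7C, COX6B1 and ATP5F1B overlapped, so no order among these genes can be read from them. The range of NDUFA3 also overlapped that of COX6A1, but within each of the 4 libraries COX6A1 was the highest of the 86 genes.

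In 4 families of complex IV with tissue-specific isoforms, 1 gene held nearly all of the transcripts. COX6A1, COX6B1, COX7B and COX8A took at least 98.6% of the TPM of their families in every library, in both groups. The isoform genes COX6A2, COX7B2 and COX8C of these families, and COX7A1 of the COX7A family, had at most 2 counts in any library and were among the 7 symbols left out, as was COX6B2, which had up to 164.9 counts. The muscle isoforms COX6A2 and COX7A1 are known from heart and skeletal muscle, and COX6B2, COX7B2 and COX8C from testis. COX7A2 (45.1% to 52.7%) and COX7A2L (47.3% to 54.9%) shared the COX7A family nearly evenly. NDUFA4L2 took 6.19% and 3.12% of the NDUFA4 family in shNC and 9.27% and 5.55% in shTPX2.

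Just outside the count limit lay COX6B2, with expected counts of 30.5 and 164.9 in shNC and 36.4 and 8.66 in shTPX2, and ATP5MGL, with 2.97 to 6.22. Just inside it lay NDUFC2-KCTD14, with a lowest expected count of 19.4, and NDUFA4L2, with a lowest count of 24. The seventh symbol left out, the readthrough ATP5MF-PTCD1, had 127 and 198 in shNC, 183 in shTPX2 1 and 0 in shTPX2 2. Readthrough symbols share their sequence with the parent genes, so both readthrough values are uncertain, and ATP5MF was 132 and 125 CPM in the same shTPX2 libraries.

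The 86 genes shared features that the choice by symbol did not use. Their transcripts are short, with a median length of 784 bases against 3007 bases over all tested genes, as the deposited counts and FPKM values imply. Short transcripts in general lay higher in the shTPX2 libraries. The median log2 fold change over all tested genes was 0.18 under 800 bases (421 genes), 0.11 from 800 to 1600 bases (1945 genes), 0.034 from 1600 to 3200 bases (5163 genes) and -0.075 above (6455 genes). In the same length classes the respiratory chain and ATP synthase genes had medians of 0.24 (46 genes), 0.25 (20 genes) and 0.13 (19 genes). Expression level moved with the fold change as well, from a median of -0.23 in the lowest of 4 equal classes of tested genes by mean log2 CPM to 0.072 in the highest, which held 47 of the 86 genes. Within the 86 genes the medians were -0.070 (4 genes), 0.12 (8 genes), 0.24 (27 genes) and 0.20 (47 genes) from the lowest to the highest class, and Spearman's rho between log2 fold change and mean log2 CPM was -0.074. Among the 142 tested genes that were both under 800 bases and in the highest expression class, 81.0% lay above 0, the median was 0.19 and 19.0% met the study's criteria with shTPX2 higher. The 23 respiratory chain and ATP synthase genes within these 142 had a median of 0.24. Across genes, which are not independent replicates and share the same 4 libraries, Spearman's rho between length and log2 fold change was -0.28 over the 86 genes and -0.24 over the tested genes with a length (n = 13984). The part of transcript length and expression level in the shift was not tested.

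Promoter sequence was compared because these genes are known targets of NRF1, of the ETS factor GABPA and of YY1. RefSeq promoters (GRCh38.p14, 250 bases before to 50 after the start site) were found for 73 of the 86 genes and searched on both strands. A gene was counted when any of its promoters held the letters. The NRF1 letters, GCGCA and GCGC with any 1 base between them, were present in 18 of the 73 genes (24.7%). They were in 12.5% of the 11297 tested genes with a promoter. Of all 35116 promoters, counted singly and not by gene, 5.78% held them. The ETS letters CCGGAAG were in 23 genes (31.5%, against 21.4% of tested genes and 10.3% of single promoters). The YY1 letters AAGATGGC were in 12 genes (16.4%, against 6.11% and 2.89%). The general elements were not more frequent than in the tested genes, with CCAAT in 31.5% (42.7%), the GC box GGGCGG in 65.8% (75.5%) and TATAAA in 8.22% (8.90%). A match is a description of the letters and not a bound site, and the ETS and YY1 letters can share the bases AAG.

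Of the 16 genes that met the study's criteria, 14 had a promoter. Of these 14, 3 held the NRF1 letters, 7 the ETS letters and 3 the YY1 letters, beside 18, 23 and 12 of all 73 genes. No difference between called genes and the others was tested. The windows around the NRF1 letters of ATP5PO, ATP5ME and UQCR11 and around the ETS letters of UQCRQ are shown as the promoters of called genes in complexes V and III, read 5′ to 3′ on the strand of the gene, with the matched letters in capitals. They lie at chr21:33915805-33915853 (minus strand), chr4:674416-674475 (minus), chr19:1605463-1605516 (minus) and chr5:132866563-132866619 (plus) in GRCh38.p14.
ATP5PO: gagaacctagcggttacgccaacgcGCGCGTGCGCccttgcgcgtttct
ATP5ME: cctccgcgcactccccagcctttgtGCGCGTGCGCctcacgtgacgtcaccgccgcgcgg
UQCR11: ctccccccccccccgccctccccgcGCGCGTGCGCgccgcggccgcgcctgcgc
UQCRQ: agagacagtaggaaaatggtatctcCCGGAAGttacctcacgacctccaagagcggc
In ATP5PO the letters end 14 bases before the annotated start site and in UQCR11 they end 19 bases before it. ATP5ME and UQCR11 each held a second NRF1 match that is not in capitals here.

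The factors named for these motifs did not themselves meet the study's criteria. NRF1 had 13.4 and 11.1 CPM in shNC and 14.4 and 12.9 CPM in shTPX2 (log2 fold change 0.16, SE 0.24), GABPA 30.0 and 23.9 against 23.2 and 18.1 CPM (-0.38, SE 0.22) and YY1 99.6 and 72.6 against 106 and 78.2 CPM (0.10, SE 0.23). Of 16 regulators of mitochondrial genes on a list from general knowledge, 3 met the criteria with shTPX2 higher (18.75%) and 0 with shTPX2 lower. Among all tested genes these shares were 6.24% and 7.99%. The coactivator PPRC1 had 76.6 and 62.9 against 99.7 and 87.3 CPM (0.42, SE 0.18), SSBP1, which binds single-stranded mitochondrial DNA, 62.5 and 51.4 against 79.0 and 76.9 CPM (0.45, SE 0.17) and MTERF1 5.60 and 4.91 against 9.11 and 9.58 CPM (0.83, SE 0.27). PPARGC1A, a master coactivator of mitochondrial biogenesis, was at or below 0.90 CPM in all libraries. Its log2 fold change was -0.96 (SE 0.55), with both shTPX2 libraries below both shNC libraries, and it did not meet the criteria.

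Counts for other genes of the pathway, from lists written from general knowledge, are given without a test between lists. Called counts stand beside 6.24% of all tested genes called higher and 7.99% called lower, and several lists are small. Of 9 further subunits and electron carriers, 8 lay above 0 (median 0.27) and 2 met the criteria, CYC1, the cytochrome c1 of complex III (160 and 170 against 219 and 209 CPM), and ETFB, a subunit of the electron transfer flavoprotein (154 and 170 against 194 and 213 CPM). GPD2, the mitochondrial glycerol 3-phosphate dehydrogenase, was the 1 gene below 0 (63.6 and 62.8 against 60.4 and 37.7 CPM). All 6 assembly factors of complex III lay above 0 (median 0.32), and BCS1L, which inserts the Rieske protein, UQCC2 and UQCC3 met the criteria. Of 19 assembly factors of complex I, 15 lay above 0 (median 0.073), with 10 above 0 and a median of 0.012 with library size only. Of these 19 genes, 4 met the criteria, NDUFAF3, NDUFAF6, NDUFAF8 and TMEM126B. Of 25 assembly factors of complex IV, 20 lay above 0 (median 0.20, and 0.12 with library size only). COX15, SCO2 and COA4 met the criteria. Of the 3 genes listed as assembly factors of the ATP synthase, 1 lay above 0, the median was -0.16 and 0 were called in either direction. This short list does not hold TMEM70, which was counted with complex I (log2 fold change 0.23, SE 0.23).

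Medians were closer to 0 in the neighbouring metabolic pathways, and with library size only they were -0.042 in both. For the 18 genes of the tricarboxylic acid cycle, which supplies NADH and succinate to the chain, 11 lay above 0, the median was 0.027 and 0 met the criteria. Of 13 genes of coenzyme Q synthesis, 8 lay above 0 (median 0.027). In this pathway PDSS1, an enzyme of the isoprenoid tail, and COQ6 met the criteria with shTPX2 higher, and COQ5, a methyltransferase, met them with shTPX2 lower (15.1 and 19.4 against 12.1 and 12.7 CPM). Of 25 inner membrane carriers and import genes, 24 lay above 0 (median 0.25). The criteria were met by 6 (24%, against 6.24% of all tested genes called higher), TOMM40, TIMM23, TIMM10, TIMM13, HSPA9 and CHCHD3. TOMM40, the pore of the outer membrane, had the largest fold change of these (91.5 and 84.9 against 132 and 155 CPM, log2 fold change 0.70, SE 0.17).

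Ribosomal proteins of mitochondria and cytosol were compared as further large gene families. Of 78 mitochondrial ribosomal protein genes, 71 lay above 0 (median 0.25) and 61.5% separated with shTPX2 higher. Of these 78, 19 met the criteria with shTPX2 higher (24.4%, against 6.24% of all tested genes) and 0 with shTPX2 lower. Of 82 cytosolic ribosomal protein genes, 64 lay above 0 (median 0.069, with 39 above 0 and a median of -0.0024 with library size only). Of these 82, 3 met the criteria with shTPX2 higher (3.66%, below the share of all tested genes). In 19.5% the groups separated with shTPX2 higher, close to the 19.4% of all tested genes. The respiratory chain and ATP synthase genes, with a median of 0.21 and 60.5% separated, lay nearer to the mitochondrial than to the cytosolic ribosomal proteins, a description of these 4 libraries that was not tested.

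**Figure D3:**
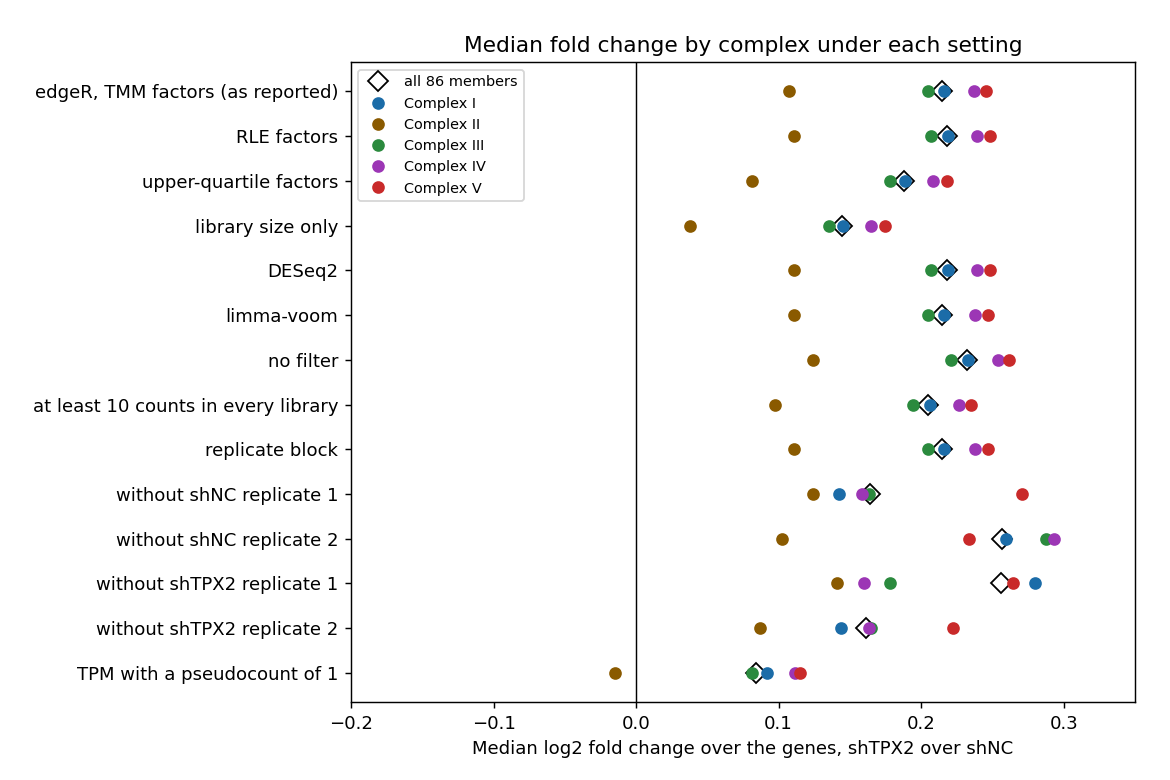
Median log2 fold change of shTPX2 over shNC (x axis) over all 86 genes (open diamonds) and over the genes of complexes I to V (coloured points) in the fit as reported and under 13 alternatives (rows). All medians lie above 0 except that of complex II on the TPM scale (-0.015), and the median of all 86 genes is lowest on the TPM scale (0.084) and highest without shNC 2 (0.26).

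The direction of the shift was kept under the 13 alternatives of that plot for the 86 genes, but its size was not. The median of 0.21 was 0.14 with library size only and 0.084 on the TPM scale, where the median of all tested genes was -0.10. Without 1 library the median ranged from 0.16 to 0.26, and its difference from the median of all tested genes, 0.22 in the fit as reported, ranged from 0.16 (without shNC 1) to 0.28 (without shTPX2 1).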

How the data were processed

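RNA of 4 PC9 libraries (2 shNC, 2 shTPX2, all labelled with 1 batch) was selected for poly(A) and sequenced with paired reads. Per the study's methods the authors used SOAPnuke for read cleaning, HISAT2/Bowtie2 for alignment and RSEM or StringTie for quantification, while the submitters' processing notes name HISAT2, featureCounts, DESeq2 and GRCh38. The annotation and the strand setting are not given in the sources used here. Each gene's expected count in a library was deposited as estimated, with no correction for depth, and 42.15% to 44.6% per library were not whole. The authors also deposited TPM and FPKM values, scaled by transcript length and library total, and average columns for each group, which were used in no test. Sharing of reads between near-identical genes by that quantification can move single values.

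Expected counts were rounded to 0 decimals. Genes passing filterByExpr (14048) were tested with edgeR 4.0.16 (quasi-likelihood, TMM factors of 0.998, 1.05, 0.959 and 0.994) in R 4.3.3, with Benjamini-Hochberg adjustment over all tested genes. CPM values are rounded counts divided by the TMM-scaled total. The study's criteria were read here as p no larger than 0.1 and a log2 change of 0.3 or more in either direction. For them, limma 3.58.1 was run after voom. DESeq2 1.42.0, other scalings and filters, a replicate block, TPM with a pseudocount of 1 and leaving out each library were alternatives. SE is the size of the log2 fold change divided by the square root of its F statistic. The common dispersion was 0.0485, and the parts of library spread and depth in the precision of single genes were not tested. The tests were first run on simulated data.

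The genes and lists were chosen with earlier results of these data known, so no set test was run. Named genes were TPX2, the core subunits, isoform families, genes meeting the study's criteria, the 2 highest and 2 lowest of each complex and symbols below the count limit, and 1 gene that this rule names is not reported here by name. Genes of the other lists were named where they met the criteria or share a motif, an assembly role or a pathway, after their values were seen, as were NDUFAB1, UQCR10 and single members named for their level. Transcript lengths were implied from counts and FPKM. Coding sequences came from GENCODE v29 and promoters from RefSeq.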

Additional observations from a re-analysis of the deposited data

Results flagged for a closer look

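A signal appeared in columns that no comparison used. The deposited table holds average TPM columns of each group, and the median log2 ratio of the authors' shTPX2 average to the authors' shNC average over the 86 genes was 0.17, with 70 of 86 genes above 0, while the means of the 2 libraries of each group gave 0.084 with 62 of 86 above 0. For complex V the authors' averages gave 0.28 and the library means 0.12, and for TPX2 the values were -1.09 and -0.92. Complex IV alone among the complexes went the other way, with 0.091 from the authors' averages and 0.11 from the library means. Over all tested genes the values were -0.063 and -0.10. The average columns are not the means of the 2 deposited libraries. The average expected count was equal to the library mean within 0.01 for 0.615% of genes in shNC and 0.933% in shTPX2. Among genes with whole counts in both libraries, the shNC average multiplied by 3 was whole (within 0.002) for 95.6% and the shTPX2 average multiplied by 4 was whole for 92.7%, against 31.0% and 43.7% when multiplied by 2. What the averages were taken over was not tested.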

How the results depend on the processing

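The count of genes at an adjusted p under 0.05 in edgeR's quasi-likelihood test over the whole table was 0 (440 higher and 688 lower at an unadjusted p under 0.05), 0 to 23 without 1 library and 111 with DESeq2. At the study's criteria it was 1998, and 1018 to 3515 without 1 library. The count of respiratory chain and ATP synthase genes that met them with shTPX2 higher was 16 (18.6%), against 6.24% of all tested genes. It was 7 under library size only, where 4.11% of all tested genes met them. Without shTPX2 2, the share of the 86 genes called higher was below that of all tested genes. With any other library left out it was above. Of the 16, 10 were among the 13 called without shNC 1, 7 among the 14 without shNC 2, 6 among the 8 without shTPX2 1 and 2 among the 2 without shTPX2 2. Under these alternatives 0 of the 86 genes were called lower. Using edgeR in place of limma-voom for these criteria, chosen after seeing the data, also gave 16. Leaving out a library leaves 1 in its group, which is assumed to vary like the other group. The median log2 fold change over the 86 genes was 0.21, with 0.14 under library size only and 0.084 on the TPM scale. For complex I these were 0.15 and 0.092 (0.14 to 0.28 without 1 library), for complex II 0.038 and -0.015, for complex III 0.14 and 0.081, for complex IV 0.16 and 0.11 and for complex V 0.17 and 0.12, with 0.22 under upper-quartile factors (0.22 to 0.27 without 1 library). Library size only moved the median of all tested genes to -0.078; the cause of the other shifts was not tested. No member passed an adjusted p of 0.05 in edgeR or DESeq2. The smallest values were those of ATP5PO, 0.575 in the edgeR test and 0.181 in DESeq2. Only directions of single genes are therefore compared: of 612 values of 51 named genes, 593 kept their direction. The 19 that reversed belonged to 10 genes near 0. With library size only they were ATP5F1C (-0.042), ATP5MC2 (-0.0050), COX7A2 (-0.055, and -0.010 with upper-quartile factors), SDHC (-0.020) and UQCRH (-0.035). Without 1 library in turn the ranges that crossed 0 were -0.0045 to 0.070 for ATP5F1C, -0.0083 to 0.25 for ATP5MC3, -0.15 to 0.22 for COX7A2, -0.13 to 0.026 for NDUFA4, -0.21 to 0.032 for NDUFB5, -0.27 to 0.084 for NDUFS1, -0.060 to 0.17 for SDHC, -0.11 to 0.056 for UQCRB and -0.17 to 0.29 for UQCRH.

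The replicate numbers are shared between groups, but nothing says that they pair libraries. Deviations of libraries with the same number correlated at r = 0.18 over all tested genes and 0.45 over the 86 genes. With the replicate number as a block the median was 0.21, 20 of the 86 genes and 2447 of all genes met the study's criteria, and 0 genes passed an adjusted p of 0.05.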
